A study of Homo sapiens with 12 samples.

Results

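ATP-binding cassette (ABC) transporter genes were taken as every probe set annotated to exactly 1 gene symbol that is ABC, a letter from A to G and a number, with pseudogene symbols ending in P left out. This rule found 47 probe sets for 43 genes, of 18417 genes with such a probe set, and for each gene the probe set with the highest mean over the 12 arrays was used. The 43 genes fall into 7 subfamilies: 12 ABCA, 8 ABCB, 11 ABCC, 3 ABCD, 1 ABCE, 3 ABCF and 5 ABCG genes. The rule itself uses only symbols and the mean signal over all arrays. In RefSeq, 42 of the 43 are protein coding, and ABCC13 is listed as a transcribed pseudogene.

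Expression was measured in U2OS-ERα cells, a human osteosarcoma line that carries estrogen receptor α, on 12 Affymetrix Human Gene 1.0 ST arrays. All cells were transfected with 50 nM of an siRNA pool, so no group is free of siRNA, and were then kept in medium with charcoal-stripped serum. The group NT_V received the non-targeting siRNA pool and ethanol vehicle, NT_E the non-targeting pool and 17-B-estradiol, siSRC-1_V the pool against SRC-1 (NCOA1) and ethanol, and siSRC-1_E the pool against SRC-1 and estradiol. Treatment lasted 3 h. Each group held 3 arrays labelled as biological replicates. The p-values rest on the spread within groups, pooled over the 4 groups and drawn toward that of all probe sets tested. How the receptor is driven in this line, and whether the line is a single clone, are not given in the sources used here.

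ABC proteins use ATP binding and hydrolysis at a pair of nucleotide-binding domains, mostly to move substrates across membranes. ABCA proteins carry lipids, ABCB and ABCC proteins carry lipids, peptides, bile salts, drugs and conjugates or regulate ion channels, ABCD proteins serve peroxisomes and lysosomes, and ABCG proteins export sterols or drugs. ABCE1 and the ABCF proteins lack membrane-spanning segments and act on ribosomes and translation. Estrogen receptor α is a hormone-dependent transcription factor, and SRC-1 is one of the coactivators it recruits.

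The knockdown was checked first. NCOA1 had means of 8.79 ± 0.06 log2 (SD, n = 3) in NT_V and 9.08 ± 0.07 in NT_E, against 5.86 ± 0.29 in siSRC-1_V and 6.86 ± 0.07 in siSRC-1_E. It fell 7.6-fold under vehicle and 4.64-fold under estradiol (limma, adjusted p = 7.3e-07 and 7.92e-06), and with SRC-1 siRNA it was itself 1 log2 higher under estradiol than under vehicle (adjusted p = 0.00029). ESR1, the receptor gene, had group means of 12.03 to 12.16 log2, and the mesenchymal and bone genes SPARC, VIM and COL1A1 had means of 12.54, 12.46 and 9.12 log2. The other bone genes, ALPL, RUNX2 and COL1A2, had lower means of 7.58, 7.21 and 6.62 log2. Of the markers of other cell types, PTPRC (leukocytes), ALB and APOB (hepatocytes) and PECAM1 (endothelium) had means of 4.19, 4.37, 5.12 and 5.09 log2, below the lower quartile of probe set means at 5.20 log2, whereas CD14 and CD3E (leukocytes) had means of 5.75 and 5.67 log2, CDH5 (endothelium) 6.10 log2, and the epithelial genes KRT8, EPCAM and CDH1 11.16, 7.35 and 5.92 log2. Of these 10 markers of other cell types, 4 thus lay below the quartile and 6 above it. Of the bone genes, ALPL (alkaline phosphatase) fell with SRC-1 siRNA, by 0.23 log2 under vehicle and 0.43 under estradiol, and COL1A2 fell by 0.22 log2 with estradiol in cells with SRC-1 siRNA; their part in the results below was not tested. Array medians lay between 6.858 and 6.901 log2, and precision is limited by having 3 arrays a group: a difference between groups of an ABC gene had a median SE of 0.068 log2. The mean of 4203 probe sets taken as controls is given as its deviation from the average array. It lay between -0.159 and -0.024 log2 on the 6 vehicle arrays and between -0.003 and 0.178 log2 on the 6 estradiol arrays, and thus moved with the hormone. Under estradiol it also differed between the siRNAs, at -0.003, 0.032 and 0.068 log2 in NT_E and 0.133, 0.094 and 0.178 in siSRC-1_E. Under vehicle the 2 siRNA groups overlapped.

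Signals of different probe sets depend on their probes and were not ranked against each other. Of the 43 genes, 34 had a mean at or above the lower quartile of 5.20 log2. The other 9 were ABCA6, ABCA8, ABCA9, ABCA10 and ABCA12, ABCB5, a relative of the drug exporters, ABCB11, the bile salt export pump of hepatocytes, ABCC13, and ABCG5, which pairs with ABCG8 to export sterols. Their means lay between 3.61 and 5.03 log2, no background level was given to set them against, and none of them was called in any comparison. All 43 genes were tested.

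Estradiol with non-targeting siRNA asks which of these genes the hormone changes when SRC-1 is present. ABCA3, ABCG2 and ABCD3 rose and ABCA1 fell. In such bulk samples fewer cells that express a gene and less RNA per cell cannot be told apart. ABCA3 loads phospholipids into the lamellar bodies of lung cells, ABCG2 (the breast cancer resistance protein) exports drugs and urate, ABCD3 carries acyl-CoA compounds into peroxisomes, and ABCA1 exports cholesterol and phospholipid to apolipoprotein A-I. By limma, 3 of 43 genes (6.98%) were called higher and 1 (2.33%) lower, where 1.85% and 0.873% of the 29094 probe sets tested were called higher and lower, 2.73% in all. For a call, p had to be under 0.01 before adjustment and under 0.05 after Benjamini-Hochberg adjustment over all of them. They include probe sets without a single gene symbol, unlike the ABC genes. Of the 19460 with 1 symbol, fitted alone, 770 were called, with the same 4 ABC genes. The median difference of the 43 genes was -0.015 log2, against -0.011 over all probe sets tested, and 19 of 43 differences were above 0. Groups did not overlap for 9 of these 43 genes and for 6120 of the 29094 probe sets.

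**Figure D1:**
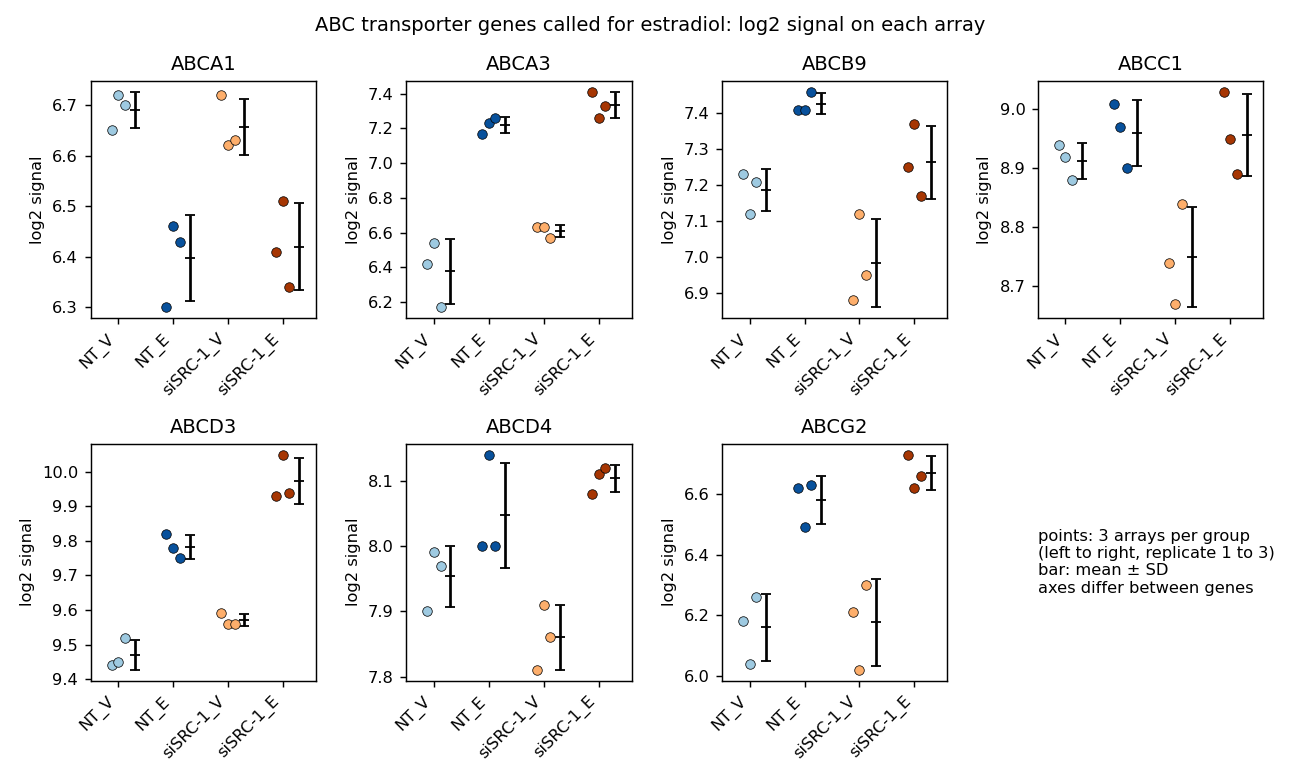
Log2 signal (y axis, scaled for each gene) on every array in the 4 groups (x axis) for the 7 ABC genes called for estradiol with either siRNA. Points are single arrays and bars the mean ± SD (n = 3); for ABCA3, ABCD3 and ABCG2 all estradiol arrays lie above all vehicle arrays of the same siRNA, and for ABCA1 all lie below.

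ABCA3 read 6.42, 6.54 and 6.17 log2 in NT_V and 7.17, 7.23 and 7.26 in NT_E. The groups are far apart, and the lowest estradiol array lies above every vehicle array. The difference was 0.84 ± 0.08 log2 (SE), a 1.79-fold rise (adjusted p = 0.000111), and it kept its call in all 12 fits that left out 1 array, at 0.74 to 0.92 log2.

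ABCG2 read 6.18, 6.04 and 6.26 log2 in NT_V and 6.62, 6.49 and 6.63 in NT_E, with no overlap. It rose 1.34-fold, by 0.42 ± 0.079 log2 (SE, adjusted p = 0.014). This call was lost without NT_V replicate 2 (0.36 log2, adjusted p = 0.0617), NT_E replicate 1 (0.40, 0.0579) or NT_E replicate 3 (0.39, 0.0659).

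ABCD3 read 9.44, 9.45 and 9.52 log2 in NT_V and 9.82, 9.78 and 9.75 in NT_E. It rose 1.24-fold, by 0.31 ± 0.045 log2 (SE, adjusted p = 0.00274), with groups that do not overlap and the call kept in all 12 fits without 1 array. Its subfamily relatives ABCD4, which exports cobalamin from lysosomes, and ABCD2, a peroxisomal carrier of fatty acyl-CoA, differed by 0.09 log2 (adjusted p = 0.467) and 0.06 log2 (0.844).

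ABCA1 was the gene called lower. It read 6.65, 6.72 and 6.70 log2 in NT_V and 6.30, 6.46 and 6.43 in NT_E, again without overlap. The difference was -0.29 ± 0.059 log2 (SE, adjusted p = 0.0215). The call was lost without NT_V replicate 2 (-0.28 log2, adjusted p = 0.0857) or 3 (-0.29, 0.0824) and without NT_E replicate 1 (-0.24, 0.0829) or 3 (-0.31, 0.0567), and in a fit of only the 6 compared arrays (-0.29, 0.0621). The number of called genes was 2 (ABCA3 and ABCD3) without NT_V replicate 2, NT_E replicate 1 or NT_E replicate 3.

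For the 4 genes called here, the 250 bases before the RefSeq gene start (GRCh38.p14) are shown on the strand of the gene, since the estrogen receptor can act at promoters through a palindrome, GGTCA and its reverse complement TGACC with any 3 bases between them, or with Sp1 at GC boxes, spelled GGGCGG. Capitals mark GGTCA and GGGCGG on either strand.
ABCA3, chr16:2340729-2340978, minus strand: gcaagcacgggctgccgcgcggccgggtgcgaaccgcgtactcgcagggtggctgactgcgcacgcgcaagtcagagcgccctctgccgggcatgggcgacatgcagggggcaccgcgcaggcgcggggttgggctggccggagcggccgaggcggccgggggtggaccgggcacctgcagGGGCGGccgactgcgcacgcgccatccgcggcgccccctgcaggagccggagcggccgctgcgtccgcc
ABCG2, chr4:88231627-88231876, minus strand: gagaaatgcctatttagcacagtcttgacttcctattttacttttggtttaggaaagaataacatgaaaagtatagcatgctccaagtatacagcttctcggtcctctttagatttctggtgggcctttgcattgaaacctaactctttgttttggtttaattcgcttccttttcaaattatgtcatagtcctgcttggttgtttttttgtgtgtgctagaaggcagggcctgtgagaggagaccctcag
ABCD3, chr1:94418139-94418388, plus strand: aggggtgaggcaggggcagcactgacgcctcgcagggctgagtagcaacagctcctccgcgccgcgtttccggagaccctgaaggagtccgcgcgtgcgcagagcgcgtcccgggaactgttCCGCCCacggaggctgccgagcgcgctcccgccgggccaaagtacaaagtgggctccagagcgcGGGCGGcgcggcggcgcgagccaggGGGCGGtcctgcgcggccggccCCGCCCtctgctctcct
ABCA1, chr9:104928156-104928405, minus strand: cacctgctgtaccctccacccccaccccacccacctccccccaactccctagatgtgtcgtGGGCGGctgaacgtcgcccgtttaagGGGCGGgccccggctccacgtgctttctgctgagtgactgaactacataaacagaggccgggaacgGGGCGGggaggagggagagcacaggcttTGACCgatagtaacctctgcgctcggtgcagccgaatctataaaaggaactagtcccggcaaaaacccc
The ABCA1 window holds 3 GC boxes and 1 GGTCA on the other strand. The latter is TGACC on the strand shown, with the T at position -69 from the start. The ABCD3 and ABCA3 windows hold 4 and 1 GC boxes and no GGTCA, and the ABCG2 window holds neither motif and is 40% G and C, against 79.2% for ABCA3. Only 1 window was read for each gene, and windows at any other transcript starts were not examined.

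Of the 43 genes, 34 had an entry in this promoter table. None of the 34 windows holds the palindrome, which is in 0.0399% of 35116 such windows. GGTCA is in 11 of 34 (32.4%) against 32.6% of all windows, the longer AGGTCA in 1 of 34 (2.94%) against 12.1%, and GGGCGG in 18 of 34 (52.9%) against 42.6%. Liver X receptors, which control ABCA1 and ABCG1, bind a direct repeat of AGGTCA with any 4 bases between the copies. In exactly these letters it is in 0 of 34 and in 0.0142% of all. These motifs were searched on both strands and a GGTCA within the longer motifs is counted in both. No match says only that these letters are not in this window, since near matches were not counted. In the ABCA1 window, TGACCgatagtaacct, read on the other strand, is close to the direct repeat, with a different base in each copy. The GGTCA of this window is part of that stretch.

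By subfamily, counts of called genes for estradiol with non-targeting siRNA were small and were not tested against each other. Among ABCA genes 1 of 12 was called higher and 1 lower, among ABCD genes 1 of 3 higher and among ABCG genes 1 of 5 higher. Of the 8 ABCB, 11 ABCC, 1 ABCE and 3 ABCF genes, 0 were called by limma, with 1, 2, 0 and 0 at an unadjusted p under 0.05. Over all probe sets tested, 13.3% had such a p. Medians were -0.017 log2 for ABCA, -0.024 for ABCB, -0.018 for ABCC, 0.094 for ABCD, 0.010 for ABCF and -0.070 for ABCG genes, and -0.037 log2 for ABCE1. ABCB9, a lysosomal peptide transporter, differed by 0.24 log2 without overlap of the groups (adjusted p = 0.108). ABCG1, which exports cholesterol like ABCA1, differed by -0.24 log2 (adjusted p = 0.211).

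**Figure D2:**
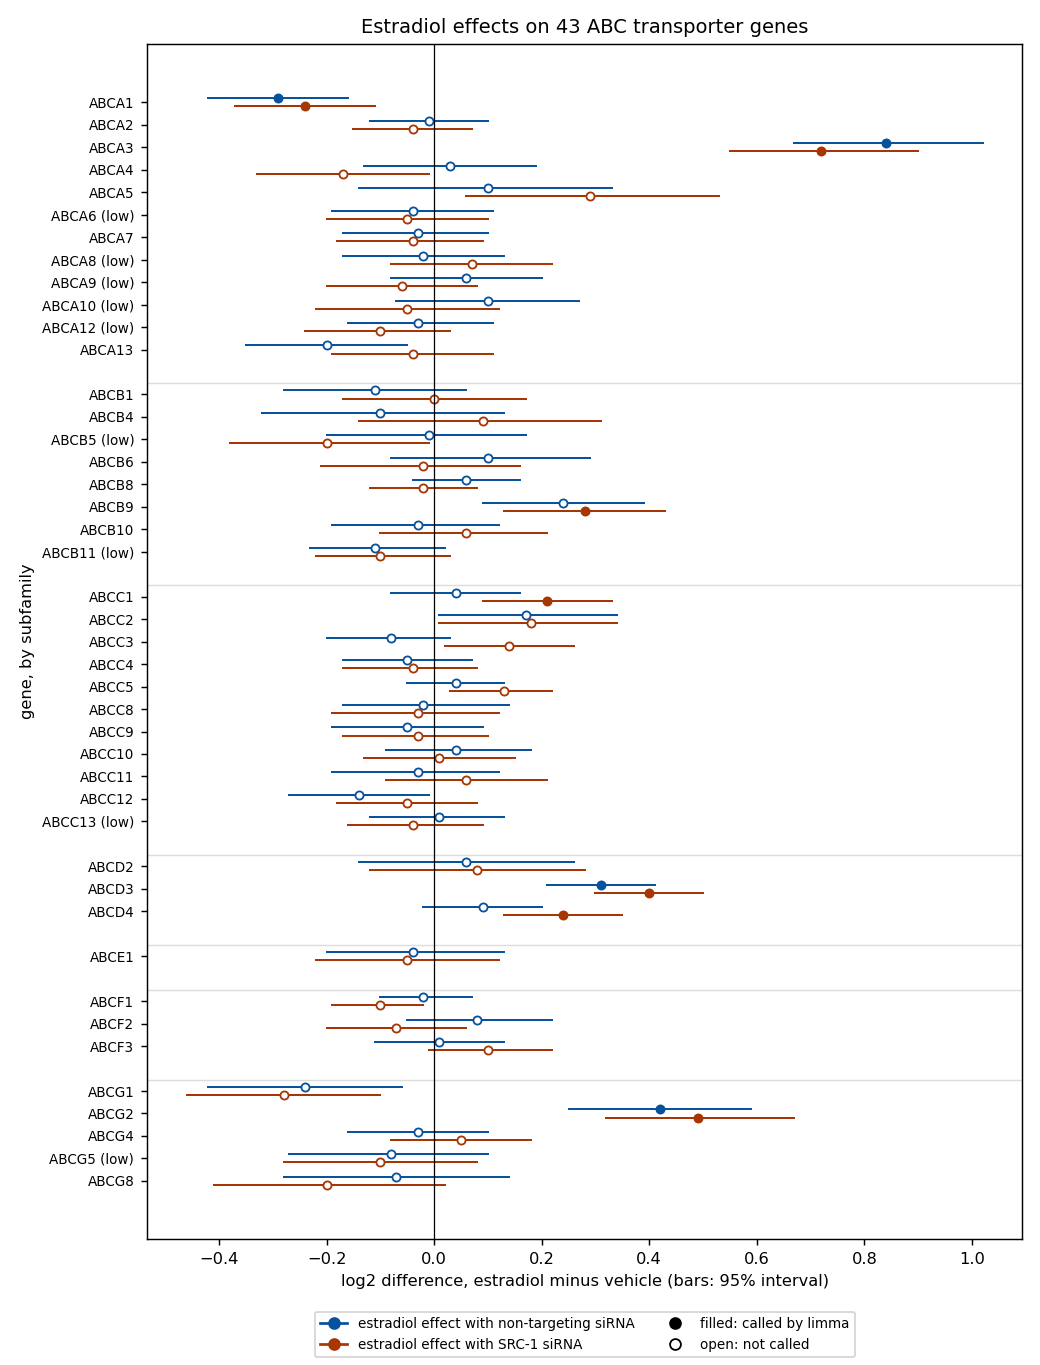
Estradiol effect (x axis, log2 difference of estradiol minus vehicle, with 95% intervals) for each of the 43 ABC genes (y axis, by subfamily; "low" marks a mean below the lower quartile of probe sets) with non-targeting siRNA (blue) and SRC-1 siRNA (brown). Filled points are called by limma; ABCA3 stands farthest to the right at 0.84 and 0.72, and ABCA1 is the only gene called lower.

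The same hormone comparison in cells given the SRC-1 pool asks how these genes respond when NCOA1 transcript is low. NCOA1 was not constant in it, at 5.86 log2 in siSRC-1_V and 6.86 in siSRC-1_E, and the part of this rise was not tested. The arrays are other ones than those above. ABCA3, ABCG2 and ABCD3 again rose and ABCA1 again fell, and ABCB9, ABCD4 and ABCC1 also passed the test, upward. ABCC1 (multidrug resistance-associated protein 1) exports glutathione and its conjugates. Limma called 6 of 43 genes (14%) higher and 1 (2.33%) lower, where 4.49% and 2.39% of all probe sets tested were called higher and lower, 6.88% in all. Of the 19460 probe sets with 1 symbol, fitted alone, 1592 were called, with the same 7 ABC genes. The median of the 43 was -0.033 log2, against -0.016 over all tested, and 19 of 43 differences were above 0. Groups did not overlap for 13 of these 43 genes and for 7493 of the 29094 probe sets. All 4 genes called with non-targeting siRNA (100%) were called here, which is 57.1% of the 7. Over all probe sets tested, 78.8% of those called with non-targeting siRNA and 31.2% of those called with SRC-1 siRNA were shared.

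ABCA3 read 6.63, 6.63 and 6.57 log2 in siSRC-1_V and 7.41, 7.26 and 7.33 in siSRC-1_E. It rose 1.65-fold, by 0.72 ± 0.08 log2 (SE, adjusted p = 0.000269), again with well separated groups. ABCG2 read 6.21, 6.02 and 6.30 log2 under vehicle and 6.73, 6.62 and 6.66 under estradiol, a 1.41-fold rise of 0.49 ± 0.079 log2 (adjusted p = 0.00349). ABCD3 read 9.59, 9.56 and 9.56 log2 under vehicle and 9.93, 10.05 and 9.94 under estradiol, a 1.32-fold rise of 0.40 ± 0.045 log2 (adjusted p = 0.000318). In each of these genes every estradiol array lies above every vehicle array, and each call was kept in all 12 fits without 1 array.

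ABCD4 read 7.81, 7.91 and 7.86 log2 in siSRC-1_V and 8.08, 8.11 and 8.12 in siSRC-1_E. It rose 1.18-fold, by 0.24 ± 0.05 log2 (SE, adjusted p = 0.0145), with no overlap, and lost its call only without siSRC-1_E replicate 3 (0.23 log2, adjusted p = 0.0521) among the fits without 1 array. The third ABCD gene, ABCD2, differed by 0.08 log2 (adjusted p = 0.663).

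ABCB9 read 6.88, 7.12 and 6.95 log2 in siSRC-1_V and 7.25, 7.37 and 7.17 in siSRC-1_E. The highest vehicle array, at 7.12, lies just below the lowest estradiol array, at 7.17. The rise was 1.21-fold, 0.28 ± 0.068 log2 (SE, adjusted p = 0.0327). It lost its call without siSRC-1_V replicate 1 (0.23 log2, adjusted p = 0.0682) or 3 (0.26, 0.104) and without siSRC-1_E replicate 1 (0.29, 0.0809) or 2 (0.23, 0.0923).

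ABCA1 read 6.72, 6.62 and 6.63 log2 in siSRC-1_V and 6.41, 6.51 and 6.34 in siSRC-1_E, without overlap. The difference was -0.24 ± 0.059 log2 (SE, adjusted p = 0.0337). It was lost without any 1 vehicle array of these cells (adjusted p = 0.0694, 0.0726 and 0.0699 for replicates 1, 2 and 3, at -0.21, -0.26 and -0.26 log2) and without siSRC-1_E replicate 1 (-0.23, 0.0984) or 3 (-0.20, 0.113). It was lost with a renewed quantile normalization (-0.20 log2, adjusted p = 0.0841), median centring (-0.22, 0.0561) and a trended and robust variance (-0.24, 0.0538) as well.

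ABCC1 lay at the edge of the threshold. It read 8.74, 8.67 and 8.84 log2 in siSRC-1_V and 9.03, 8.95 and 8.89 in siSRC-1_E, and 8.94, 8.92 and 8.88 in NT_V and 9.01, 8.97 and 8.90 in NT_E. The vehicle arrays with SRC-1 siRNA are thus the lowest of the 12, and the other 3 groups overlap. The rise was 0.21 ± 0.055 log2 (SE, adjusted p = 0.0485), and the call was kept in only 1 of 12 fits without 1 array, the one without siSRC-1_V replicate 3 (0.25 log2, adjusted p = 0.0354). In the other 11 the adjusted p lay between 0.0549 (without NT_E replicate 3) and 0.18 (without siSRC-1_V replicate 2), and the difference between 0.17 and 0.24 log2. The count of called genes was 4 without siSRC-1_V replicate 1, siSRC-1_E replicate 1 or siSRC-1_E replicate 3. A fit of only the 6 compared arrays also called 4, which were ABCA3, ABCD3, ABCG2 and ABCG1; the calls of ABCA1 (adjusted p = 0.101), ABCB9 (0.124), ABCC1 (0.145) and ABCD4 (0.0511) were lost there.

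With the array mean of the control probe sets as a covariate, 0 of 43 genes were called by limma for estradiol with SRC-1 siRNA. The effects were then 0.75 ± 0.19 log2 (SE, adjusted p = 0.202) for ABCA3, 0.45 ± 0.10 (0.168) for ABCD3, 0.36 ± 0.11 (0.314) for ABCD4, 0.49 ± 0.14 (0.283) for ABCB9, 0.22 ± 0.13 (0.649) for ABCC1, -0.26 ± 0.14 (0.608) for ABCA1 and 0.23 ± 0.16 (0.712) for ABCG2. The ABCG2 effect was smaller than without the covariate, those of ABCB9 and ABCD4 were larger, and the error was larger for all 7. With non-targeting siRNA, ABCA3 and ABCD3 kept their calls with this covariate, at 0.85 and 0.33 log2, and ABCG2 (0.29 ± 0.099, adjusted p = 0.274) and ABCA1 (-0.30 ± 0.085, 0.181) did not. The covariate differs between vehicle and estradiol arrays, so a technical and a hormonal part of it cannot be told apart. It differs between the siRNAs under estradiol as well. A technical part thus cannot be told apart in that siRNA comparison or in the difference of the estradiol effects either.

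With SRC-1 siRNA the calls were spread over 5 subfamilies: 1 higher and 1 lower of 12 ABCA, 1 of 8 ABCB, 1 of 11 ABCC, 2 of 3 ABCD and 1 of 5 ABCG genes. ABCE1, which splits ribosomes after termination, differed by -0.05 log2 (adjusted p = 0.746). Of the 3 ABCF genes, ABCF1 read 10.79, 10.82 and 10.82 log2 in siSRC-1_V and 10.71, 10.73 and 10.68 in siSRC-1_E, a difference of -0.10 log2 (adjusted p = 0.115). The 3 probe sets of ABCF1 held identical values. Medians were -0.047 log2 for ABCA, -0.009 for ABCB, 0.011 for ABCC, 0.243 for ABCD, -0.069 for ABCF and -0.101 for ABCG genes. ABCG1 differed by -0.28 log2 with no overlap (adjusted p = 0.0659), in the direction of ABCA1, and ABCA5 by 0.29 log2 (adjusted p = 0.132).

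Several members with well known roles did not pass the test for estradiol. ABCB1, the drug exporter P-glycoprotein, read 7.82 to 8.06 log2 in NT_V and 7.75 to 7.92 in NT_E, a difference of -0.11 log2 with a 95% interval from -0.28 to 0.06 (adjusted p = 0.619), and 0.00 (-0.17 to 0.17) with SRC-1 siRNA. ABCC4, which exports cyclic nucleotides and prostaglandins, differed by -0.05 (-0.17 to 0.07) and -0.04 log2 (-0.17 to 0.08). ABCA2, a lipid carrier of late endosomes, differed by -0.01 (-0.12 to 0.10) and -0.04 log2 (-0.15 to 0.07), ABCB10, a mitochondrial inner membrane transporter, by -0.03 (-0.19 to 0.12) and 0.06 (-0.10 to 0.21), and ABCG4, a sterol exporter, by -0.03 (-0.16 to 0.10) and 0.05 (-0.08 to 0.18). These intervals leave room for changes of up to about that size.

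Some members lie side by side in the genome. ABCA8, ABCA9, ABCA6, ABCA10 and ABCA5 follow each other on chromosome 17, and of these only ABCA5 had a mean above the lower quartile, at 6.28 log2. ABCB4, a phospholipid exporter of the bile canaliculus, and ABCB1 are neighbours on chromosome 7, ABCC12 and ABCC11 on chromosome 16, and ABCG5 and ABCG8 on chromosome 2. None of these 11 genes was called in any comparison. Of the 7 called genes, 0 neighbour another member. ABCB8, a mitochondrial transporter, has 3 probe sets, none of them called; their estradiol differences were 0.06, 0.04 and 0.01 log2 with non-targeting siRNA and -0.02, -0.13 and -0.10 with SRC-1 siRNA.

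The SRC-1 siRNA effect under vehicle asks which ABC genes differ with less SRC-1 and no added hormone. Limma called 0 of 43 genes, where 1.21% of all probe sets tested were called, and 6 of 43 (14%) had an unadjusted p under 0.05, against 12.7% of all. The 2 genes with the smallest p were ABCC3, which exports conjugates across the basolateral membrane of epithelia, and ABCA13, a very large lipid transporter. ABCC3 read 6.85, 6.77 and 6.67 log2 in NT_V and 6.57, 6.59 and 6.48 in siSRC-1_V, a difference of -0.22 ± 0.053 log2 (SE, adjusted p = 0.0834). ABCA13 read 7.01, 7 and 6.96 log2 in NT_V and 6.82, 6.67 and 6.68 in siSRC-1_V, a difference of -0.27 ± 0.069 log2 (adjusted p = 0.108). Neither pair of groups overlaps, which held for 10 of 43 ABC genes and 5363 of 29094 probe sets in this comparison. With the lowest 40% of probe sets left out, both were called (adjusted p = 0.0301 for ABCC3 and 0.0444 for ABCA13), and ABCC3 also among probe sets with 1 symbol only (0.0493).

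Without added hormone the median of the 43 genes was -0.031 log2, against 0.001 over all tested. By subfamily it was 0.024 log2 for ABCA, -0.076 for ABCB, -0.027 for ABCC, -0.035 for ABCD, 0.027 for ABCF and 0.015 for ABCG genes, and -0.061 log2 for ABCE1. Differences lay between -0.27 log2 (ABCA13) and 0.24 (ABCA3). The others at an unadjusted p under 0.05 were ABCA3 (0.24 log2, adjusted p = 0.23), ABCC2, a conjugate exporter of the apical membrane (-0.23, 0.214), ABCB9 (-0.20, 0.223) and ABCC1 (-0.17, 0.215). This comparison shares the NT_V arrays with the estradiol effect with non-targeting siRNA and the siSRC-1_V arrays with that with SRC-1 siRNA. The values of these genes are therefore not independent of either estradiol effect.

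The SRC-1 siRNA effect under estradiol gave 0 of 43 genes called by limma, where 1.8% of all probe sets tested were called, and 7 of 43 (16.3%) at an unadjusted p under 0.05, against 15.8% of all. ABCD3 had the smallest p. It read 9.82, 9.78 and 9.75 log2 in NT_E and 9.93, 10.05 and 9.94 in siSRC-1_E, all higher with SRC-1 siRNA, a difference of 0.19 ± 0.045 log2 (SE, adjusted p = 0.0641). It was called with the lowest 40% of probe sets left out (adjusted p = 0.0224), with a trended and robust variance (0.0124) and among probe sets with 1 symbol only (0.0387). ABCC2 read 7.15, 7.26 and 7.32 log2 in NT_E and 7.02, 6.97 and 7.07 in siSRC-1_E, a difference of -0.22 ± 0.075 log2 (adjusted p = 0.179). The median of the 43 genes was -0.012 log2, against -0.006 over all tested, and subfamily medians lay between -0.086 (ABCB) and 0.058 log2 (ABCD). Here groups did not overlap for 9 of 43 genes and for 6477 of 29094 probe sets. The NT_E and siSRC-1_E arrays also enter the estradiol effects, so these values are not independent of them.

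**Figure D3:**
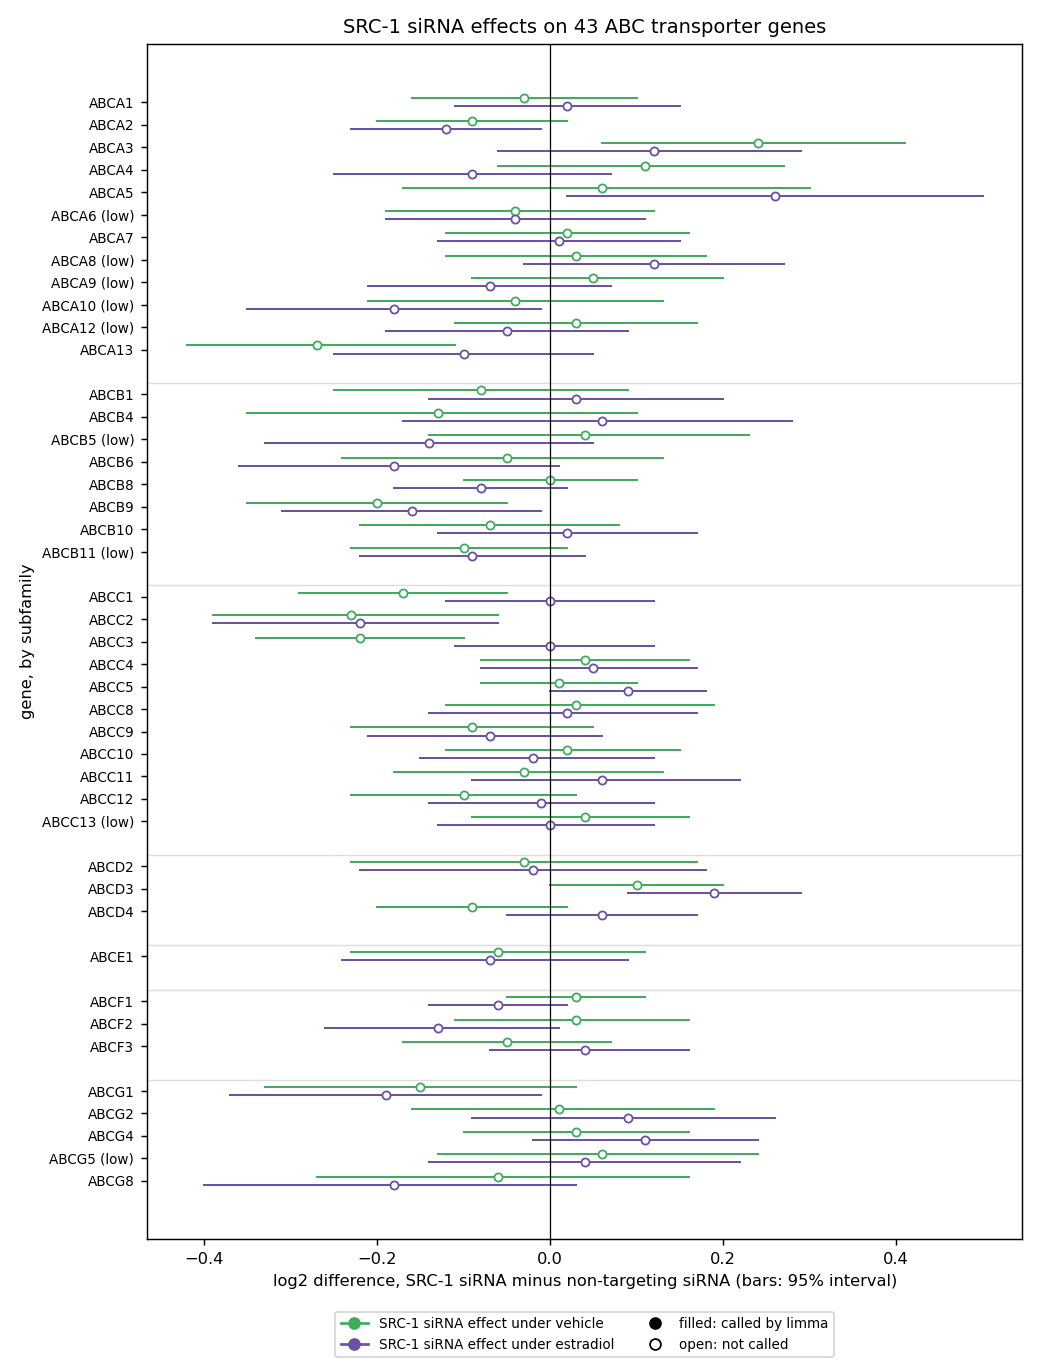
SRC-1 siRNA effect (x axis, log2 difference of SRC-1 siRNA minus non-targeting siRNA, with 95% intervals) for each of the 43 ABC genes (y axis, by subfamily) under vehicle (green) and estradiol (purple). All points are open, since limma called none, and they lie between -0.27 (ABCA13 under vehicle) and 0.26 (ABCA5 under estradiol).

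Whether SRC-1 siRNA alters the estradiol response of an ABC gene was tested by subtracting one estradiol effect from the other in the fit. The knockdown of NCOA1 was shallower under estradiol (4.64-fold) than under vehicle (7.6-fold), and its part in these differences was not tested. Limma called 0 of 43 genes and 0 of all 29094 probe sets (0%), with 1 of 43 (2.33%) at an unadjusted p under 0.05, against 7.22% of all. That gene was ABCC3, whose effect was -0.08 log2 with non-targeting and 0.14 log2 with SRC-1 siRNA, a difference of 0.22 with a 95% interval from 0.06 to 0.39 (adjusted p = 0.593). Next was ABCC1 with 0.17 (-0.01 to 0.34, adjusted p = 0.703). A p that misses the threshold does not show that the responses are alike, and the median half-width of these intervals was 0.212 log2.

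For the genes called with either siRNA the difference was -0.12 log2 for ABCA3 (95% interval -0.37 to 0.13), 0.07 for ABCG2 (-0.17 to 0.32), 0.09 for ABCD3 (-0.05 to 0.23) and 0.05 for ABCA1 (-0.13 to 0.24). For the others it was 0.04 for ABCB9 (-0.17 to 0.25) and 0.15 for ABCD4 (-0.01 to 0.31). All of these intervals cover 0. The calls of ABCB9, ABCD4 and ABCC1 with SRC-1 siRNA alone are therefore not shown to differ from the effects with non-targeting siRNA. For ABCA3 the lower bound of -0.37 log2 stands against an effect of 0.84 log2 with non-targeting siRNA.

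**Figure D4:**
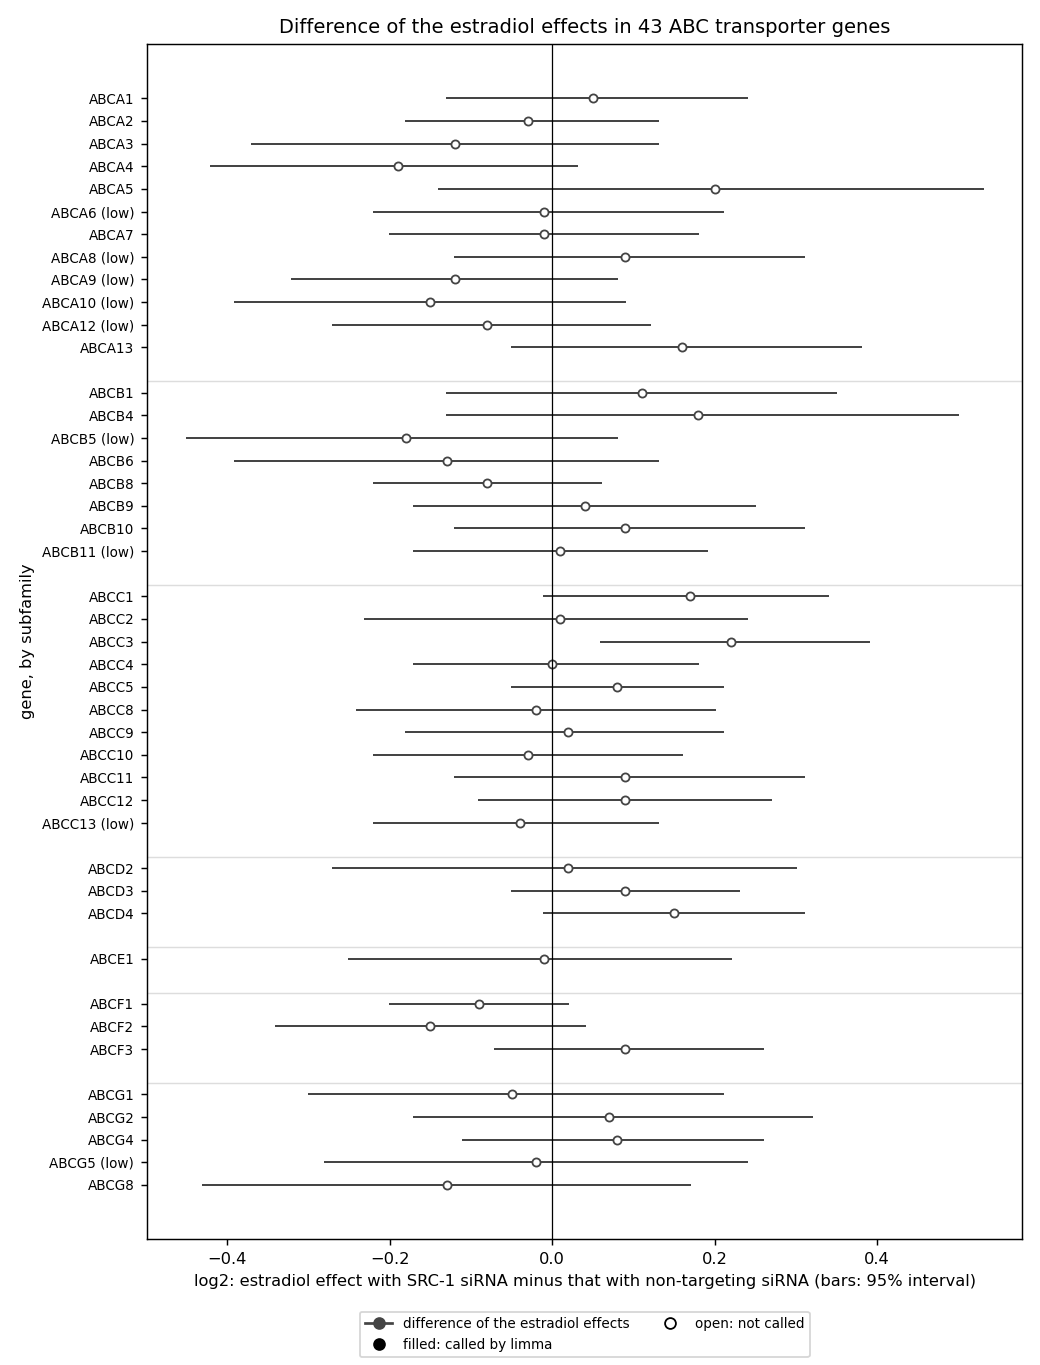
Difference of the estradiol effects (x axis, log2 effect with SRC-1 siRNA minus that with non-targeting siRNA, with 95% intervals) for each of the 43 ABC genes (y axis, by subfamily). All points are open, as limma called none; the interval of ABCC3 (0.06 to 0.39) is the only one that lies wholly on one side of 0.

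Of the other ABC transporters, CFTR, the chloride channel, and TAP1 and TAP2, which carry peptides for antigen presentation, have symbols that the rule does not match. None was called in any of the 5 comparisons. CFTR read 3.90 to 4.13 log2 on the 12 arrays, below the lower quartile. TAP1 read 9.27, 9.27 and 9.19 log2 in NT_V and 9.22, 9.18 and 9.08 in NT_E, and 9.31, 9.41 and 9.30 in siSRC-1_V and 9.35, 9.30 and 9.29 in siSRC-1_E, where the siRNA difference under estradiol was 0.15 log2 (adjusted p = 0.17). TAP2 differed by -0.07 to 0.00 log2 in the 4 comparisons of groups.

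Genes that work beside ABC transporters were taken from 9 lists, without a test of any list. The lists were chosen with earlier results of these data known, so their counts are descriptive only. Their counts stand against the shares of all probe sets called: 2.73% and 6.88% for estradiol with non-targeting and SRC-1 siRNA, and 1.21% and 1.8% for SRC-1 siRNA under vehicle and estradiol. Of the 12 calls named below, only those of CYP1A1 and NQO1 under vehicle were kept both in a fit of only the compared arrays and with the control covariate; GSTM3 was lost in the former (adjusted p = 0.134), and the other 9 in both. Of 14 measured sterol-handling genes, 0 were called for estradiol with either siRNA, with medians of -0.049 and -0.063 log2; MYLIP, which liver X receptors switch on like ABCA1, differed by 0.12 and 0.01 log2. NPC1, which exports cholesterol from lysosomes, fell with SRC-1 siRNA under estradiol, by 0.26 ± 0.046 log2 (SE, adjusted p = 0.015), and this call was kept in 9 of 12 fits without 1 array. It was lost without NT_E replicate 2, siSRC-1_E replicate 1 or siSRC-1_E replicate 3, at -0.23 to -0.28 log2 over the 12 fits. Of 9 peroxisomal genes, PEX5, the import receptor for matrix proteins, was the only one called, at -0.20 log2 for estradiol with SRC-1 siRNA (adjusted p = 0.0495), kept in 3 of 12 such fits; the list medians there and with non-targeting siRNA were 0.040 and -0.023 log2.

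Of 16 measured drug-response genes, SLCO3A1, an uptake carrier of organic anions, was called higher for estradiol with non-targeting siRNA (0.19 log2, adjusted p = 0.0448, kept in 1 of 12 fits without 1 array) and with SRC-1 siRNA (0.21, 0.018, kept in 8 of 12). SRC-1 siRNA under vehicle gave 3 of 16 called lower, where 0.945% of all probe sets were: CYP1A1, a monooxygenase induced through the aryl hydrocarbon receptor, at -0.52 ± 0.063 log2 (SE, adjusted p = 0.00226), NQO1, a quinone reductase, at -0.35 ± 0.05 (0.00597), and GSTM3, a glutathione transferase, at -0.24 ± 0.042 (0.0164). CYP1A1 and NQO1 kept these calls in all 12 fits without 1 array. GSTM3 kept its call in 8, losing it without NT_V replicate 1 or 2 or siSRC-1_V replicate 2 or 3. Under estradiol NQO1 fell by 0.28 log2 (adjusted p = 0.017), a call lost without NT_E replicate 1 or 3 or siSRC-1_E replicate 1 or 3.

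Of 10 genes of iron-sulfur and heme synthesis, SLC25A37, the mitochondrial iron importer, was called higher for estradiol with non-targeting siRNA (0.22 log2, adjusted p = 0.0373, kept in 3 of 12 fits without 1 array) and lower with SRC-1 siRNA under estradiol (-0.32, 0.0079). The latter call was kept in all 12 such fits but not with only the compared arrays (adjusted p = 0.0541) or the control covariate (0.139). Of 5 surfactant genes, LPCAT1, which makes surfactant phosphatidylcholine, rose by 0.24 log2 for estradiol with SRC-1 siRNA (adjusted p = 0.0136), and lost its call without siSRC-1_V replicate 2 or siSRC-1_E replicate 1. Of 6 peptide-loading genes, TAPBPL, a tapasin relative, was called higher with SRC-1 siRNA under estradiol (0.28 log2, adjusted p = 0.035, kept in 5 of 12). None of the 8 ribosome-recycling, 8 cobalamin and 2 potassium-channel genes was called by limma. EIF2S1 and EIF6 read means of 12.03 and 11.75 log2, MMADHC and MTRR 10.97 and 10.60, and KCNJ11 and KCNJ8, the pore subunits that pair with ABCC8 and ABCC9, 6.10 and 5.99.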

How the data were processed

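The authors deposited 1 log2 value per probe set and array, made from scans with the affy package, per the series' design text and the submitters' processing notes; versions, background correction, normalization and summarization are not given in the sources used here. No further scaling was applied. The file lists 33297 probe sets; 4203 whose identifiers precede every gene's were inferred to be controls and left out, which leaves 29094: 19460 with 1 symbol, 1754 with several and 7880 with none, in GEO's platform annotation. The 43 Entrez identifiers of the ABC genes matched RefSeq, with 0 symbols changed.

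Group means were estimated jointly over the 12 arrays by limma 3.58.1 (R 4.3.3; empirical Bayes, 3.15 prior and 8 residual degrees of freedom). Thresholds are those of the design text, tests two-sided and intervals 95%. No depth applies to arrays. The fit was tested on simulated data. No 2 arrays were identical; arrays of 1 group correlated at 0.9967 to 0.9979.

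The ABC genes and partner lists were chosen with earlier results of these data known. Named are members called in any comparison, the member of each subfamily with the highest mean, for comparisons without a call the 2 smallest p, ABCA1, ABCB1, ABCC1, ABCG2, CFTR, TAP1, TAP2, NCOA1 and ESR1, and in each list up to 4 called genes, or else the 2 with the highest mean; others were added after their values were seen. Alternatives were a replicate block, only the compared arrays, probe set filters, scalings, variance models, array weights, a covariate, a mean of a gene's probe sets, a stricter threshold and each array left out. Promoter windows come from RefSeq (GRCh38.p14); the array values name no genome build.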

Additional observations from a re-analysis of the deposited data

How the results depend on the processing

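In all 24 alternatives run for each called gene (23 for the difference of the estradiol effects) no called effect changed sign. ABCA3 and ABCD3 kept their calls for estradiol with non-targeting siRNA in all 24, and with SRC-1 siRNA they and ABCG2 were lost only with the control covariate. The number of called genes for estradiol with non-targeting siRNA was 4, 3 with only the compared arrays (without ABCA1), and 2 with the covariate or with an adjusted p under 0.01; leaving out single arrays gave 2 to 4. With SRC-1 siRNA it was 7, and 4 with only the compared arrays (ABCG1 gained), 0 with the covariate, 3 with an adjusted p under 0.01, and 4 to 7 without single arrays. For SRC-1 siRNA under vehicle it was 0, and 2 with the lowest 40% of probe sets left out and 1 among probe sets with 1 symbol only; under estradiol it was 0, and 1 with either of these or a trended and robust variance. Both stayed at 0 by limma without any single array; over all arrays 6 and 7 of 43 had an unadjusted p under 0.05, against 12.7% and 15.8% of all probe sets. With the filter on low probe sets, ABCC5 and ABCG1 were also called for estradiol with SRC-1 siRNA (9 genes).

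With the replicate number as a block, 4, 6, 0, 0 and 0 genes were called in the 5 comparisons, ABCC1 being lost (adjusted p = 0.053). Deviations of the 18 pairs of same-numbered arrays correlated at -0.0349 to 0.209, 6 of them above 0.1, and those of differently numbered arrays at -0.264 to 0.115. As not every pair was above 0.1, the numbers were not taken to pair the arrays; the 6 pairs are of replicates 1 and 2 of NT_V, siSRC-1_V and siSRC-1_E, and whether these share a batch was not tested. Effects under about 0.2 log2 were within reach of few tests here: the median 95% half-width for the ABC genes, without adjustment, was 0.15 log2. Larger effects could be missed too. In simulated data with 200 of 29094 probe sets changed, changes of 0.3 log2 were called in 29.9% to 47.8% of cases in comparisons of groups. For the difference of the estradiol effects it was 13.4%. The adjusted threshold depends on how many probe sets change, and the data gave 793 and 2001 calls for estradiol with non-targeting and SRC-1 siRNA. The simulated rates therefore need not hold for these comparisons.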
